A study of Homo sapiens with 18 samples.

Results

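The unfolded protein response and the integrated stress response are described here by 38 genes of the 43236 gene symbols in the count table. The members were taken by symbol from a list with 2 arms, 24 genes of the ATF4 arm and 14 genes of the endoplasmic reticulum (ER) chaperone arm. The list was chosen with earlier results of these data known. All 38 were found and passed the filter on low counts, which left 16291 genes to test. Messenger RNA was sequenced from NCI-H1693, a SMARCA4-deficient cell line established from a human lung cancer of the non-small cell type. The groups were cells given 50 nM PRT3789 for 6, 48 or 72 h and cells given the solvent DMSO for 6, 48 or 72 h, with 3 libraries each and 18 in all. PRT3789 is a degrader of SMARCA2, the alternative ATPase to SMARCA4 in the chromatin remodelling complexes of the SWI/SNF family, and the comparison asks how transcripts answer to it in a cell short of SMARCA4. All groups share this single line.

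When cells meet amino acid shortage, misfolded protein in the ER or other stresses, kinases phosphorylate the initiation factor eIF2. General translation then falls while the mRNA of the transcription factor ATF4 is translated more, and ATF4 with its partners raises genes for amino acid transport, serine synthesis and one-carbon metabolism, and, under lasting stress, the factor CHOP encoded by DDIT3. A separate branch of the unfolded protein response runs through IRE1, which splices the XBP1 mRNA, and through the membrane factor ATF6, and both raise chaperones and genes for the removal of misfolded proteins. ATF4 and XBP1 are thus controlled largely after transcription, by translation and by splicing, which gene counts do not show.

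Library totals ran from 23154484 to 31094797 counts. Levels are given as CPM, the counts of a gene scaled to a common library total after composition scaling by trimmed mean of M values (TMM). They are not divided by gene length, so that only levels of the same gene are compared. The spread between libraries was widest at 6 h. Taken over 11059 genes, the median SD within a group on the log2 CPM scale was 0.149 in PRT3789 and 0.167 in DMSO at 6 h. It was 0.0644 in PRT3789 and 0.119 in DMSO at 48 h, then 0.0669 in PRT3789 and 0.0722 in DMSO at 72 h. The epithelial markers EPCAM, KRT8, KRT18, KRT19 and CDH1 were all present. Their summed level was 8000 to 9060 CPM in PRT3789 and 8640 to 10000 CPM in DMSO at 6 h, 4660 to 4910 and 10200 to 11000 CPM at 48 h, and 4120 to 4330 and 9150 to 9900 CPM at 72 h. The markers did not move alike. At 72 h mean CPM in PRT3789 and DMSO was 1810 and 4630 for KRT8, 1320 and 3580 for KRT18, and 167 and 332 for CDH1. It was 567 and 594 for EPCAM, and 333 and 318 for KRT19. The 5 blood markers summed to 1.01 to 3.19 CPM in all libraries. The 3 endothelial markers summed to 0.0995 to 0.331 CPM in PRT3789 and 2.13 to 2.91 CPM in DMSO at 48 h, and the 4 fibroblast markers, mainly LUM and COL1A1, to 84 to 87.2 CPM in PRT3789 and 108 to 126 CPM in DMSO. The endothelial difference at 48 h lay in CDH5, with means of 0.0257 CPM in PRT3789 and 2.3 CPM in DMSO. PECAM1 had 0.092 and 0.117 CPM, and VWF 0.0616 and 0.0917 CPM. The part of these differences in the results on the stress genes was not tested. In such bulk RNA, fewer cells of a kind and less RNA per cell cannot be told apart. The labels do not say that libraries of a group came from separate cultures, so p-values measure only the spread between these libraries.

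The promoters of 33 members were in RefSeq (GRCh38.p14), each as 300 bases that run from 250 before to 50 after 1 start site of the gene, on the gene's strand. That site need not be the outer end of the gene. The window of ASNS lies inside the gene, which spans chr7:97851677-97928441. Both strands were searched for the C/EBP-ATF response element read as TGATGNAAN, to which ATF4 is known to bind with C/EBP partners, and for 3 elements known from the unfolded protein response. These were the ER stress response element (ERSE, the letters CCAAT and CCACG with 9 bases between them), ERSE-II (ATTGG and CCACG with 1 base between them) and the XBP1 element read as TGACGTGG. ASNS and CHAC1 are shown for the ATF4 arm, XBP1, HSPA5 and HSP90B1 for the ERSE, and HERPUD1 because its window held elements of both kinds. Capitals mark the letters matched.
ASNS: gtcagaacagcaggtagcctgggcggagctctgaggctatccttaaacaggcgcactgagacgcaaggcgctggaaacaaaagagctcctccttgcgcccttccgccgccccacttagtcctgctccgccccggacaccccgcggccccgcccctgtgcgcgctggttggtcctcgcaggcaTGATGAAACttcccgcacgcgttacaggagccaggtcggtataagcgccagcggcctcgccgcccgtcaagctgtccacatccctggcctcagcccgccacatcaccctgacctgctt
CHAC1: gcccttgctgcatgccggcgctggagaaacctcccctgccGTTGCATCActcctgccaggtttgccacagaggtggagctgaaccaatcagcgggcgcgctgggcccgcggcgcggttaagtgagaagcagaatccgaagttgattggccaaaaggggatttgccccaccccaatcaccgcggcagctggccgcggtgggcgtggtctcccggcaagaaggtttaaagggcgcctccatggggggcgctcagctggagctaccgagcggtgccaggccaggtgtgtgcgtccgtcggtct
XBP1: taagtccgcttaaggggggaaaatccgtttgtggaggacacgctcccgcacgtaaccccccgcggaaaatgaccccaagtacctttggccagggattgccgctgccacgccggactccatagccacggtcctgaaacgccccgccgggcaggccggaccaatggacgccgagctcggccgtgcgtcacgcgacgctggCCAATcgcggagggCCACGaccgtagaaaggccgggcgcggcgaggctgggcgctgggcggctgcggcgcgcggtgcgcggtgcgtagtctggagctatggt
HSPA5: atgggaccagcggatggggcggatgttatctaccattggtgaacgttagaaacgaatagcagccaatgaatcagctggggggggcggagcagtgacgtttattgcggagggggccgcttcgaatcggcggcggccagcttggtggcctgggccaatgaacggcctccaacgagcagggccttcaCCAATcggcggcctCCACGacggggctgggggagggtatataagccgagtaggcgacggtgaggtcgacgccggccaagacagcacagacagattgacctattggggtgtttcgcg
HSP90B1: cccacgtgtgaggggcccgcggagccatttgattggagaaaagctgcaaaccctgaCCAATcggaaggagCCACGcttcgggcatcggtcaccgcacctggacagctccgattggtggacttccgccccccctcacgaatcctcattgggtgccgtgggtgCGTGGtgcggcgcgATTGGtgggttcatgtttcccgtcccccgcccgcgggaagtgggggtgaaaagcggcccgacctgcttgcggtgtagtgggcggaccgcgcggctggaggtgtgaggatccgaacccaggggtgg
HERPUD1: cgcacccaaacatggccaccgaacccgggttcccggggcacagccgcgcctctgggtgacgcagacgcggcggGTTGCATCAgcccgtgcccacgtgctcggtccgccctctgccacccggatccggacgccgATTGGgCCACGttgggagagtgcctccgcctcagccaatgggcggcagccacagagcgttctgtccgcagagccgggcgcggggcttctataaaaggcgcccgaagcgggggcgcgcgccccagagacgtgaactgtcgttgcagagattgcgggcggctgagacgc
These windows lie at chr7:97872359-97872658, chr15:40953221-40953520, chr22:28800520-28800819, chr9:125241294-125241593, chr12:103930160-103930459 and chr16:56931892-56932191, in the order printed, with ASNS, XBP1 and HSPA5 on the minus strand. TGATGNAAN was found in 4 of 19 promoters of the ATF4 arm, those of ASNS, CHAC1, SLC3A2 and SLC7A1, and in 1 of 14 of the ER arm, that of HERPUD1, against 3.67% of 27305 promoters in all. The ERSE was found in 5 of 14 promoters of the ER arm (XBP1, HSPA5, HSP90B1, CALR and CRELD2) and in 0 of 19 of the ATF4 arm, against 0.0806% in all. HSP90B1 held it on both strands. ERSE-II was found in HERPUD1 and SDF2L1, 2 of 14, and in 0 of 19, against 0.0549%, and TGACGTGG in none of the 33, against 0.795%. A match says that the letters are there and does not show a bound site.

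After 48 and 72 h in PRT3789 genes of the ATF4 arm were called in both directions. Called lower were 54.2% of the arm at 48 h and 37.5% at 72 h, against 20.9% and 22% of all tested genes. Called higher were 12.5% and 20.8%, no more than the 21.2% and 21.3% of all genes. The transcripts of ATF4 itself, of the amino acid carriers SLC7A5 and SLC3A2, of the serine and one-carbon enzymes PHGDH and SHMT2, and of DDIT4, STC2, VLDLR and PCK2 were lower at both times, by 1.16- to 3.12-fold. DDIT3, CHAC1 and ATF5 were higher at both times, by 1.28- to 2.63-fold. In the ER arm 7 of 14 genes (50%) were called lower at each late time, by at most 1.54-fold, against the same 20.9% and 22%. XBP1, HERPUD1, MANF, HSP90B1, SDF2L1 and HSPA5 were lower at both times and SYVN1 was higher at both. Called higher were 14.3% of the ER arm at 48 h and 7.14% at 72 h. At 6 h, differences were few and small.

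**Figure D1:**
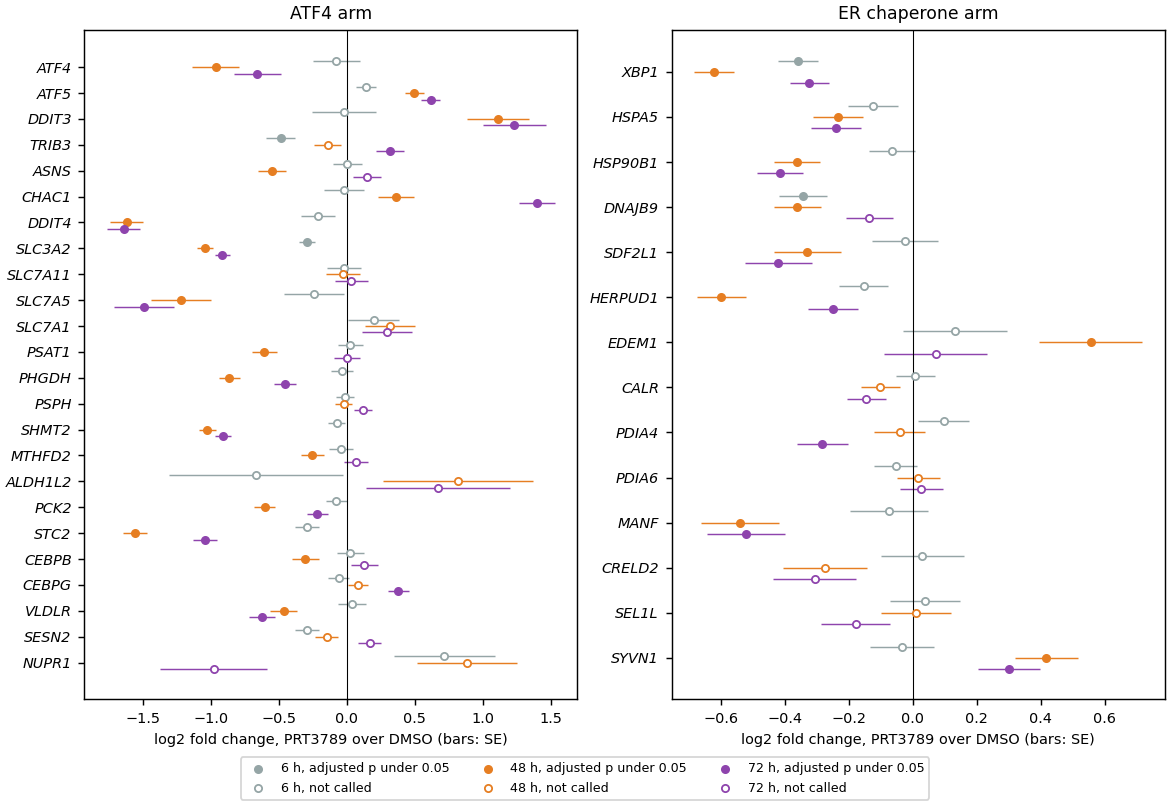
Log2 fold change of each of the 38 members, PRT3789 over DMSO, at 6, 48 and 72 h, with standard error bars from the edgeR fit of 18 libraries. Filled points have an adjusted p under 0.05. In the ATF4 arm DDIT4 reached -1.64 and CHAC1 1.40 at 72 h, while in the ER arm all values lay between -0.62 and 0.56.

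Of the 24 genes of the ATF4 arm, 3 were called higher and 13 lower at 48 h, where edgeR called 21.2% of all tested genes higher and 20.9% lower (quasi-likelihood F test, Benjamini-Hochberg adjusted p under 0.05). At 72 h 5 were called higher and 9 lower, against 21.3% and 22% of all genes. Of the 14 genes of the ER arm, 2 were called higher and 7 lower at 48 h, and 1 higher and 7 lower at 72 h, against the same percentages. The median log2 fold change of the ATF4 arm was -0.28 at 48 h and 0.05 at 72 h, and that of the ER arm -0.26 and -0.24, beside 0.01 and 0.01 for all tested genes.

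ATF4, the central factor of the integrated stress response, had 261, 249.8 and 366 CPM in PRT3789 at 6 h, against 220.0, 338 and 368 CPM in DMSO. It had 157, 168 and 164 CPM in PRT3789 at 48 h, against 256, 340.5 and 357 CPM in DMSO. At 72 h it had 159.7, 157 and 188 CPM in PRT3789, against 262, 282 and 253 CPM in DMSO. The groups overlapped at 6 h, and at 48 and 72 h every PRT3789 library lay below every DMSO library. The log2 fold change was -0.08 ± 0.17 (SE, adjusted p = 0.891), -0.96 ± 0.17 (adjusted p = 0.000247) and -0.66 ± 0.17 (adjusted p = 0.00485) at 6, 48 and 72 h. Among the other factors of this arm, ATF5, a relative of ATF4, averaged 41.9 ± 0.193 CPM at 48 h in PRT3789 and 29.7 ± 1.97 CPM in DMSO (SD, n = 3 each), a 1.41-fold rise (adjusted p = 2.29e-05), and rose 1.53-fold at 72 h (adjusted p = 1.61e-06). CEBPB and CEBPG encode C/EBP partners of ATF4. CEBPB fell 1.24-fold at 48 h (adjusted p = 0.0189), a call that ended without any 1 of 3 libraries (PRT3789 48 h replicate 2, DMSO 48 h replicates 1 and 2), and its log2 fold change at 72 h was 0.13 (adjusted p = 0.315). CEBPG rose 1.3-fold at 72 h (adjusted p = 0.000599) and stood at a log2 fold change of 0.08 at 48 h (adjusted p = 0.415).

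DDIT3, which encodes the pro-apoptotic factor CHOP, went the opposite way to ATF4. At 6 h it had 22.3, 20.5 and 37.4 CPM in PRT3789, against 16.8, 28.5 and 36.4 CPM in DMSO. It had 66.3, 77.8 and 80.3 CPM in PRT3789 at 48 h, against 28.4, 38.1 and 37.4 CPM in DMSO, and 65.7, 66.7 and 77.9 CPM in PRT3789 at 72 h, against 31.1, 31.2 and 27.5 CPM in DMSO. After an overlap at 6 h, all PRT3789 libraries of 48 and 72 h lay above all DMSO libraries of any time. DDIT3 was 2.16-fold higher at 48 h (log2 fold change 1.11 ± 0.23, adjusted p = 0.000948), and the fold at 72 h was 2.34 (1.23 ± 0.23, adjusted p = 0.000358). CHAC1, an enzyme that degrades glutathione and a known target of ATF4 and CHOP, had 7.30, 6.50 and 8.01 CPM in PRT3789 at 6 h, against 5.85, 8.71 and 7.61 CPM in DMSO. At 48 h it had 20.9, 21.6 and 23.8 CPM in PRT3789, against 14.2, 19.7 and 17.8 CPM in DMSO, and at 72 h 31.1, 26.9 and 32.3 CPM in PRT3789, against 10.5, 11.7 and 12.1 CPM in DMSO. The groups met at 6 h, lay close together without overlap at 48 h and lay far apart at 72 h. CHAC1 was 1.28-fold higher at 48 h (0.36 ± 0.13, adjusted p = 0.0357), and the fold at 72 h was 2.63 (1.40 ± 0.13, adjusted p = 1.7e-07). The call at 48 h ended when any 1 of 5 libraries of that time was left out (all but DMSO replicate 2), and without DMSO 48 h replicate 1 the log2 fold change was 0.24. TRIB3, a pseudokinase induced by ATF4 and CHOP that restrains ATF4, was 1.25-fold higher at 72 h (adjusted p = 0.016), which was lost without PRT3789 72 h replicate 3 or DMSO 72 h replicate 3, and had a log2 fold change of -0.14 at 48 h (adjusted p = 0.273).

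DDIT4 (also called REDD1), an inhibitor of mTORC1 that hypoxia also induces, had the largest fall of the arm at both late times. It had 12.3, 10.5 and 13.0 CPM in PRT3789 at 6 h, against 11.7, 14.8 and 15.0 CPM in DMSO. The 48 h libraries had 11.2, 11.6 and 12.8 CPM in PRT3789, against 31.1, 38.7 and 39.6 CPM in DMSO, and at 72 h 10.1, 8.74 and 10.7 CPM in PRT3789, against 33.8, 29.5 and 28.9 CPM in DMSO. The PRT3789 libraries of all 3 times lay between 8.74 and 13.0 CPM, and the DMSO libraries of 48 and 72 h lay above all of them. DDIT4 was 3.07-fold lower at 48 h (-1.62 ± 0.12, adjusted p = 9.55e-09), and the fold at 72 h was 3.12 (-1.64 ± 0.12, adjusted p = 7.32e-09). STC2, a secreted glycoprotein that ER stress and hypoxia induce, had 18.5, 21.0 and 19.3 CPM in PRT3789 at 6 h, against 24.7, 25.2 and 22.2 CPM in DMSO. After 48 h there were 19.8, 20.6 and 23.3 CPM in PRT3789, against 59.3, 63.9 and 64.4 CPM in DMSO, and at 72 h 27.9, 24.8 and 28.0 CPM in PRT3789, against 50.7, 61.4 and 53.7 CPM in DMSO. Its groups did not overlap at any time. STC2 was 2.94-fold lower at 48 h (-1.56 ± 0.09, adjusted p = 3.09e-10), and the fold at 72 h was 2.06 (-1.04 ± 0.09, adjusted p = 3.43e-08). VLDLR, a lipoprotein receptor that ATF4 and hypoxia induce, was lower by 1.38-fold after 48 h and by 1.54-fold after 72 h (adjusted p = 0.000892 and 4.56e-05).

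Among the amino acid carriers, SLC7A5 and SLC3A2 form the 2 chains of the exchanger LAT1, which brings leucine and other large neutral amino acids into the cell. SLC7A5 had 294, 359 and 201 CPM in PRT3789 at 6 h, against 475, 278 and 256 CPM in DMSO. At 48 h it had 258, 231 and 243 CPM in PRT3789, against 716, 523 and 465 CPM in DMSO, and at 72 h 273, 249.9 and 279.9 CPM in PRT3789, against 728, 733 and 796 CPM in DMSO. Its groups overlapped at 6 h and were apart later, although the DMSO libraries of 48 h were themselves spread, with replicate 1 above the others. SLC7A5 was 2.33-fold lower at 48 h (-1.22 ± 0.22, adjusted p = 0.00029), and the fold at 72 h was 2.81 (-1.49 ± 0.22, adjusted p = 3.67e-05). SLC3A2, the heavy chain, had 262, 268 and 257 CPM in PRT3789 at 6 h, against 338, 312 and 315 CPM in DMSO. The 48 h libraries had 174, 172 and 177 CPM in PRT3789, against 367, 369 and 344 CPM in DMSO, and at 72 h 194, 184 and 193 CPM in PRT3789, against 372, 360.4 and 343 CPM in DMSO. All PRT3789 libraries lay below all DMSO libraries at each time, with the narrowest gap at 6 h. SLC3A2 was 2.06-fold lower at 48 h (-1.04 ± 0.06, adjusted p = 1.72e-10), and the fold at 72 h was 1.89 (-0.92 ± 0.06, adjusted p = 7.25e-10). Neither SLC7A11, the cystine carrier that also pairs with SLC3A2 and is also an NRF2 target, nor SLC7A1, a carrier of cationic amino acids, passed the test in the fit of all 18 libraries. SLC7A11 had log2 fold changes of -0.02, -0.03 and 0.03 (SE 0.12 to 0.13), and SLC7A1 had 0.20, 0.32 and 0.30 (SE 0.183 to 0.185). With each late time fitted apart, SLC7A1 was called higher at 48 h (0.30, adjusted p = 0.0218) and at 72 h (0.29, adjusted p = 0.000117), in fits that called 23.8% and 28.9% of all genes higher.

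**Figure D2:**
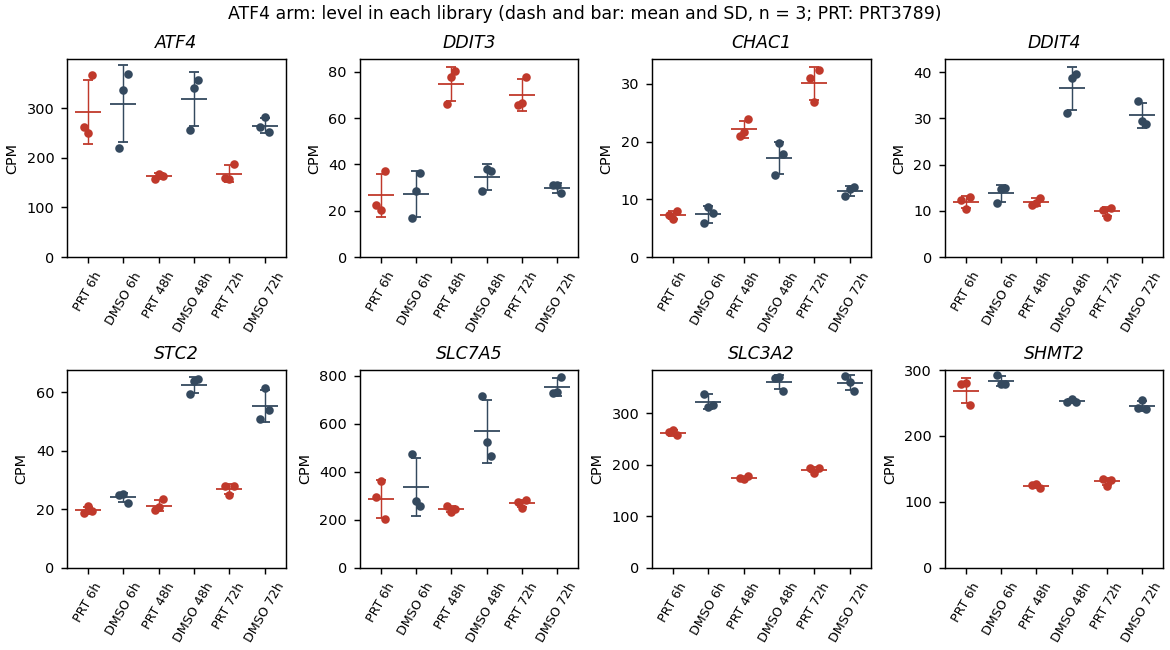
Level in CPM of 8 genes of the ATF4 arm in each of the 18 libraries, with PRT3789 (PRT) to the left of DMSO at each time. Points are libraries and dashes with bars are the mean and SD of 3. DDIT3 and CHAC1 were highest in PRT3789 at 48 and 72 h, DDIT4 and STC2 were highest in DMSO at 48 and 72 h, and SHMT2 was lowest in PRT3789 at 48 and 72 h.

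Among the enzymes of serine synthesis and mitochondrial one-carbon metabolism, SHMT2 and PHGDH were called lower at both late times, PSAT1 and MTHFD2 at 48 h, and PSPH at neither in the fit of all 18 libraries. SHMT2, which splits serine in mitochondria, averaged 124 ± 3.44 CPM in PRT3789 and 253 ± 2.94 CPM in DMSO at 48 h, and 131 ± 5.6 and 246 ± 7.82 CPM at 72 h (SD, n = 3), a fall of 2.04-fold and of 1.88-fold (adjusted p = 5.11e-10 and 1.78e-09). PHGDH, the first enzyme of serine synthesis, averaged 35.6 ± 1.67 CPM in PRT3789 and 64.8 ± 2.69 CPM in DMSO at 48 h, and 40.6 ± 2.38 and 55.7 ± 6.11 CPM at 72 h, a fall of 1.82-fold and of 1.37-fold (adjusted p = 1.34e-07 and 0.000153). PSAT1, the second enzyme, fell 1.52-fold at 48 h (adjusted p = 4.48e-05) and averaged 140 ± 3.51 CPM in PRT3789 and 140 ± 17.6 CPM in DMSO at 72 h (log2 fold change 0.00, adjusted p = 1). Asparagine synthetase, ASNS, had a like course, with a 1.47-fold fall at 48 h (adjusted p = 0.000357) and a log2 fold change of 0.15 at 72 h (adjusted p = 0.276). MTHFD2, a folate enzyme of mitochondria, was 1.19-fold lower at 48 h (adjusted p = 0.0242) with overlapping libraries. That call ended with total counts as the scale and without PRT3789 48 h replicate 1 or 3 or DMSO 48 h replicate 3, and without the last its log2 fold change was -0.12, against -0.26 with it. PCK2, the mitochondrial enzyme that makes phosphoenolpyruvate, fell 1.52-fold at 48 h (adjusted p = 5e-06) and was 1.16-fold lower at 72 h (adjusted p = 0.0279), the call at 72 h being lost with total counts as the scale or without any 1 of 4 libraries of that time (PRT3789 replicates 1 and 2, DMSO replicates 1 and 2). PSPH, the last enzyme of serine synthesis, did not pass in that fit at any time, with log2 fold changes of -0.01, -0.02 and 0.12 (SE 0.064 to 0.065). Reads of PSPH, and of HSP90B1 in the ER arm, can also match pseudogene copies, so that their counts are less certain. This may hold for other members too and was not tested for any.

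The remaining genes of the arm passed at no time in the fit of all 18 libraries. SESN2, a leucine sensor upstream of mTORC1, had log2 fold changes of -0.29, -0.15 and 0.17 (adjusted p = 0.0705, 0.174 and 0.122). NUPR1, a small stress-induced nuclear protein, was near the lower end of what was counted, with 0.374 to 1.69 CPM in PRT3789 and 0.415 to 0.915 CPM in DMSO over all times, and its log2 fold changes were 0.72, 0.88 and -0.98 (adjusted p = 0.407, 0.0612 and 0.0523). With 72 h fitted apart, SESN2 was called higher (0.16, adjusted p = 0.0325) and NUPR1 lower (-0.99, adjusted p = 0.0188). That fit called 28.9% of all genes higher and 29.7% lower. ALDH1L2, a mitochondrial folate enzyme, had 0.105 to 0.64 CPM in PRT3789 and 0.0639 to 0.432 CPM in DMSO, and differences of its size were not detectable at this depth (SE of the log2 fold change 0.53 to 0.64).

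In the ER arm, XBP1, the factor that IRE1 activates, was lower at every time. It had 66.0, 62.2 and 60.7 CPM in PRT3789 at 6 h, against 84.5, 80.3 and 77.5 CPM in DMSO. After 48 h there were 65.8, 64.8 and 66.4 CPM in PRT3789, against 94.9, 98.7 and 109.6 CPM in DMSO, and at 72 h 74.7, 73.4 and 76.2 CPM in PRT3789, against 95.6, 94.6 and 90.4 CPM in DMSO. No PRT3789 library reached the lowest DMSO library of any time. The falls were 1.28-fold (-0.36 ± 0.06, adjusted p = 0.00176), 1.54-fold (-0.62 ± 0.06, adjusted p = 3.61e-07) and 1.25-fold (-0.32 ± 0.06, adjusted p = 0.000386) at 6, 48 and 72 h, and the 6 h call was lost when that time was fitted alone (adjusted p = 0.172). HSPA5, which encodes BiP, the main ER chaperone and a sentinel of the unfolded protein response, had 814, 792 and 712 CPM in PRT3789 at 6 h, against 953, 801 and 771 CPM in DMSO. At 48 h it had 944, 976 and 933 CPM in PRT3789, against 1103, 1091 and 1164 CPM in DMSO, and at 72 h 907, 907 and 863 CPM in PRT3789, against 1069, 1083 and 1006 CPM in DMSO. The groups overlapped at 6 h and lay apart, PRT3789 below DMSO, at 48 and 72 h. HSPA5 was 1.18-fold lower at both late times (-0.24 ± 0.08, adjusted p = 0.0223, and -0.24 ± 0.08, adjusted p = 0.0194). Both calls were lost with total counts as the scale (adjusted p = 0.136 and 0.121), and each without some libraries, namely PRT3789 replicates 1 and 3 and DMSO replicate 3 at 48 h, and PRT3789 replicates 2 and 3 and DMSO replicates 1 and 2 at 72 h.

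Among the other chaperones and cochaperones, HSP90B1, which encodes GRP94, fell 1.29-fold at 48 h and 1.33-fold at 72 h (adjusted p = 0.000604 and 0.000145). SDF2L1, a partner of BiP, had 19.6, 17.8 and 20.1 CPM in PRT3789 at 6 h, against 19.1, 18.6 and 20.9 CPM in DMSO. The 48 h libraries had 13.9, 11.9 and 14.7 CPM in PRT3789, against 17.2, 18.04 and 15.7 CPM in DMSO, and at 72 h 13.7, 12.7 and 16.6 CPM in PRT3789, against 20.2, 19.2 and 18.1 CPM in DMSO. The late groups did not overlap, and the fall was 1.26-fold at 48 h (adjusted p = 0.0173) and reached 1.34-fold at 72 h (adjusted p = 0.00313), the call at 48 h being lost without PRT3789 or DMSO 48 h replicate 2. MANF, an ER protein that binds BiP and is secreted under stress, had 101, 90.9 and 128 CPM in PRT3789 at 6 h, against 90.8, 113 and 133 CPM in DMSO. After 48 h there were 68.7, 66.5 and 62.5 CPM in PRT3789, against 92.0, 97.2 and 98.1 CPM in DMSO, and at 72 h 66.8, 60.2 and 67.5 CPM in PRT3789, against 94.1, 96.3 and 88.5 CPM in DMSO. All 6 late PRT3789 libraries lay below all DMSO libraries. MANF was 1.45-fold lower at 48 h (-0.54 ± 0.12, adjusted p = 0.00175), and the fold at 72 h was 1.43 (-0.52 ± 0.12, adjusted p = 0.00208). DNAJB9 (ERdj4), a J protein that holds IRE1 in check, fell 1.28-fold at 48 h (adjusted p = 0.000704) and had a log2 fold change of -0.14 at 72 h (adjusted p = 0.147). PDIA4, a disulfide isomerase, fell 1.22-fold at 72 h (adjusted p = 0.00725), a call that missed the threshold with total counts as the scale (adjusted p = 0.0525). Its relative PDIA6, the lectin chaperone CALR and the ER protein CRELD2 passed at no time in the fit of all 18 libraries. Their log2 fold changes at 48 and 72 h were 0.02 and 0.03 for PDIA6, -0.10 and -0.14 for CALR, and -0.28 and -0.31 for CRELD2. With each time fitted apart, CRELD2 was called lower at 48 h (-0.29, adjusted p = 0.0144) and 72 h (-0.32, adjusted p = 0.00111) and CALR at 72 h (-0.15, adjusted p = 0.00546), in fits that called 25.6% and 29.7% of all genes lower.

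The genes of ER-associated degradation went both ways. HERPUD1, a membrane protein of the degradation complex, had 81.4, 80.9 and 86.7 CPM in PRT3789 at 6 h, against 86.8, 99.5 and 90.7 CPM in DMSO. At 48 h it had 65.9, 75.2 and 70.0 CPM in PRT3789, against 94.4, 109 and 116 CPM in DMSO, and at 72 h 77.1, 74.1 and 73.0 CPM in PRT3789, against 90.4, 91.7 and 84.6 CPM in DMSO. PRT3789 lay below DMSO without overlap at each time, by a margin under 1 CPM at 6 h. HERPUD1 fell 1.51-fold at 48 h (-0.60 ± 0.08, adjusted p = 8.05e-06), and the fold at 72 h was 1.19 (-0.25 ± 0.08, adjusted p = 0.015), the later call being lost without PRT3789 72 h replicate 3 or DMSO 72 h replicate 2. SYVN1, which encodes the ubiquitin ligase HRD1, had 37.3, 45.7 and 38.4 CPM in PRT3789 at 6 h, against 47.1, 40.5 and 36.6 CPM in DMSO. The 48 h libraries had 61.2, 55.7 and 61.5 CPM in PRT3789, against 50.2, 44.0 and 39.5 CPM in DMSO, and at 72 h 62.6, 63.6 and 64.2 CPM in PRT3789, against 50.8, 51.3 and 52.5 CPM in DMSO. All 6 late PRT3789 libraries lay above all DMSO libraries. SYVN1 rose 1.34-fold at 48 h (0.42 ± 0.10, adjusted p = 0.00251), and the fold at 72 h was 1.23 (0.30 ± 0.10, adjusted p = 0.019), and the later call ended without PRT3789 72 h replicate 3, DMSO 72 h replicate 1 or DMSO 72 h replicate 2 (adjusted p = 0.055 to 0.0574). EDEM1, which hands misfolded glycoproteins to degradation, had 46.7, 50.9 and 32.4 CPM in PRT3789 at 6 h, against 51.8, 32.7 and 34.0 CPM in DMSO. After 48 h there were 69.1, 68.5 and 73.0 CPM in PRT3789, against 54.9, 44.2 and 44.2 CPM in DMSO, and at 72 h 70.7, 76.9 and 73.7 CPM in PRT3789, against 68.2, 66.5 and 75.8 CPM in DMSO. It stood apart, higher in PRT3789, at 48 h alone, where it rose 1.47-fold (0.56 ± 0.16, adjusted p = 0.0105), a call lost without DMSO 48 h replicate 2 (adjusted p = 0.0533). SEL1L, the partner of HRD1, passed at no time in the fit of all 18 libraries, with log2 fold changes of 0.01 and -0.18 at 48 and 72 h. It was called lower with 72 h fitted apart (-0.19, adjusted p = 0.0102), where 29.7% of all genes were called lower.

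**Figure D3:**
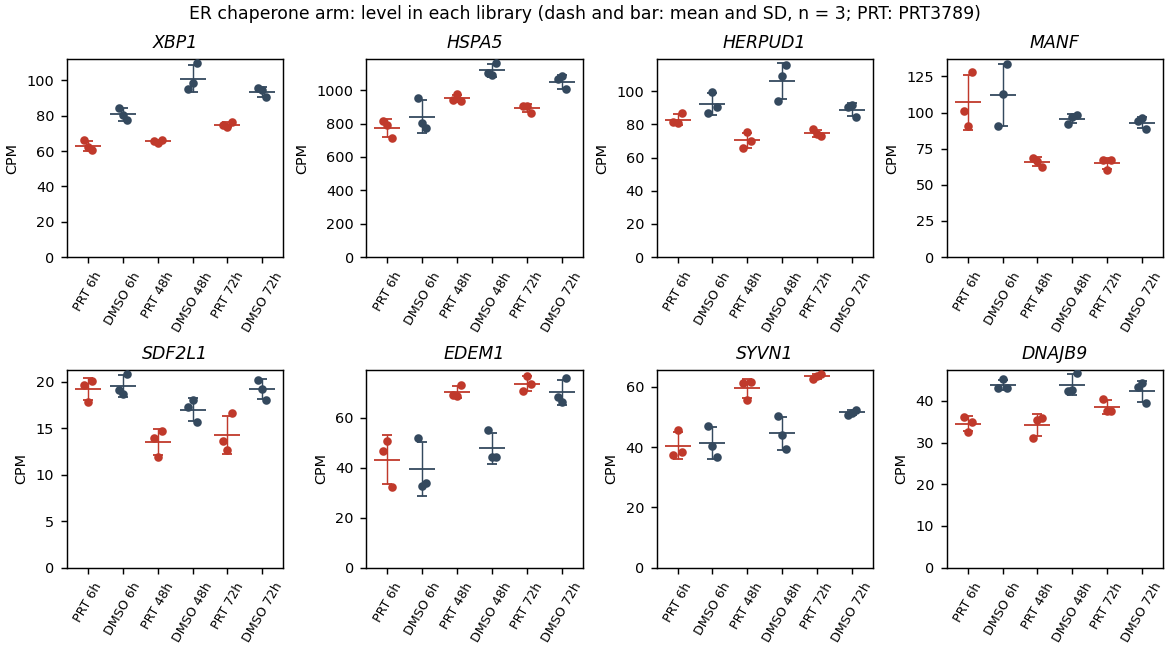
Level in CPM of 8 genes of the ER chaperone arm in each of the 18 libraries, with PRT3789 (PRT) to the left of DMSO at each time. Points are libraries and dashes with bars are the mean and SD of 3. XBP1 was lower in PRT3789 at all 3 times, and SYVN1 was higher in PRT3789 at 48 and 72 h.

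At 6 h 4 members were called lower and 0 higher in the fit of all 18 libraries. They were TRIB3 (-0.49 ± 0.10, adjusted p = 0.00939) and SLC3A2 (-0.29 ± 0.06, adjusted p = 0.00441), 2 of 24 in the ATF4 arm, and XBP1 and DNAJB9 (-0.34 ± 0.07, adjusted p = 0.00962), 2 of 14 in the ER arm. The background was 3.04% of genes called lower and 1.28% higher. The median log2 fold change was -0.04 in each arm, beside -0.01 for all genes. For the higher direction edgeR gave 0 members also at an unadjusted p under 0.05, and DESeq2 and limma-voom gave 0. Of all genes, these gave 1028, 322 and 182 higher, in that order. That fit shares one estimate of the spread over all times, and the libraries of 6 h differed more than the later ones. Fitted on the 6 h libraries alone, edgeR called 0 of 23 ATF4-arm genes and 0 of 14 ER genes that it could test, with a lowest adjusted p of 0.169 and 0.172, while it called 0.976% of all genes in either direction. The fold changes of these 4 genes kept their direction in that fit, at -0.48, -0.28, -0.35 and -0.33 for TRIB3, SLC3A2, XBP1 and DNAJB9. In the fit of all libraries the calls of TRIB3 and DNAJB9 were also lost without DMSO 6 h replicate 2, and that of DNAJB9 without PRT3789 6 h replicate 2. SLC3A2 lost its call when scaled by total counts (adjusted p = 0.0545).

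The effect of PRT3789 differed between 48 h and 6 h for 13 of 24 ATF4-arm genes, 2 towards higher and 11 towards lower, and for 3 of 14 ER genes, 1 towards higher and 2 towards lower. Among all genes 8.83% were called towards higher and 10.4% towards lower. This was a test of the difference itself, the log2 fold change at 48 h minus that at 6 h, and it uses the same libraries as the comparisons above. Among the members called, DDIT4, STC2 and SLC7A5 had the most negative differences (-1.40 ± 0.17, -1.26 ± 0.13 and -0.98 ± 0.31, adjusted p = 1.57e-05, 1.46e-06 and 0.035), and DDIT3 the most positive (1.13 ± 0.33, adjusted p = 0.0227). The ER count of 3 became 1 without PRT3789 6 h replicate 1, DMSO 6 h replicate 2, PRT3789 48 h replicate 1 or 3, or DMSO 48 h replicate 3. Between 48 and 72 h the difference was called for 0 of 24 and 0 of 14 members and for 0% of all genes in either direction. At an unadjusted p under 0.05, edgeR gave 11 ATF4-arm genes towards higher and 1 towards lower, and 3 and 2 ER genes. Of all 16291 genes it gave 675 towards higher and 801 towards lower. DESeq2 called 5 ATF4-arm genes and 1 ER gene towards higher, and limma-voom 0. Of all genes, DESeq2 called 65 towards higher and 38 towards lower, and limma-voom 0 in either direction. Without DMSO 48 h replicate 1, edgeR called 2 ATF4-arm genes, and how many of all genes that fit called was not counted.

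Culture time in DMSO alone was also compared, with the DMSO libraries used above. From 6 to 48 h, 62.5% of the ATF4 arm was called in either direction, and 42.9% of the ER arm, against 37.2% of all genes. The share of the ER arm was thus near that of all genes. Between 6 and 48 h in DMSO, 13 ATF4-arm genes rose and 2, ATF5 and SHMT2, fell, and 5 ER genes rose and 1, PDIA6, fell, where 17.1% of all genes rose and 20.1% fell. The median log2 fold change was 0.33 in the ATF4 arm and 0.16 in the ER arm, beside -0.001 for all genes. DDIT4 averaged 36.5 ± 4.68 CPM in DMSO at 48 h, against 13.8 ± 1.84 CPM in DMSO at 6 h (log2 fold change 1.40 ± 0.12, adjusted p = 2.35e-07). In PRT3789 its means were 11.9 ± 1.31, 11.9 ± 0.833 and 9.85 ± 0.997 CPM at 6, 48 and 72 h. STC2 averaged 62.5 ± 2.81 CPM in DMSO at 48 h, against 24 ± 1.58 CPM in DMSO at 6 h (1.38 ± 0.09, adjusted p = 8.58e-09), while its means in PRT3789 were 19.6 ± 1.27, 21.2 ± 1.87 and 26.9 ± 1.8 CPM. The means of PCK2 in PRT3789 were likewise close to each other, at 30.5 ± 1.74, 32.2 ± 2.08 and 33.8 ± 2.3 CPM, beside 49 ± 1.22 CPM in DMSO at 48 h and 32.3 ± 1.77 CPM in DMSO at 6 h. For these 3 genes the mean in PRT3789 at 48 h was thus near that at 6 h, and the difference between the groups came with a higher DMSO level. PRT3789 libraries were not tested over time. ATF4 and SHMT2 had another course. ATF4 averaged 163 ± 5.51 CPM in PRT3789 at 48 h. That was below its means of 318 ± 54.5 CPM in DMSO at 48 h and 309 ± 78.1 CPM in DMSO at 6 h. ATF4 in DMSO did not pass the test over time (adjusted p = 0.865). SHMT2 averaged 124 ± 3.44 CPM in PRT3789 at 48 h, below 253 ± 2.94 CPM in DMSO at 48 h and 283 ± 7.61 CPM in DMSO at 6 h. Its fall over time in DMSO was small (log2 fold change -0.16 ± 0.06, adjusted p = 0.0448). CHAC1 rose over time in DMSO (log2 fold change 1.22 ± 0.14, adjusted p = 5.08e-06) and was higher still in PRT3789. Between 48 and 72 h in DMSO edgeR called 0 members of either arm, against 0.387% of all genes that rose and 0.153% that fell. At an unadjusted p under 0.05 it gave 1 ATF4-arm gene higher and 6 lower, and 3 and 1 ER genes. Of all 16291 genes it gave 1855 higher and 1366 lower. DESeq2 called 4 ATF4-arm genes lower and 1 ER gene in each direction, and limma-voom 1 ATF4-arm gene lower. Of all genes, DESeq2 called 326 higher and 228 lower, and limma-voom 85 and 37. Without DMSO 48 h replicate 1 edgeR called 2 ATF4-arm genes, and without DMSO 72 h replicate 2 it called 1. How many of all genes those fits called was not counted.

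**Figure D4:**
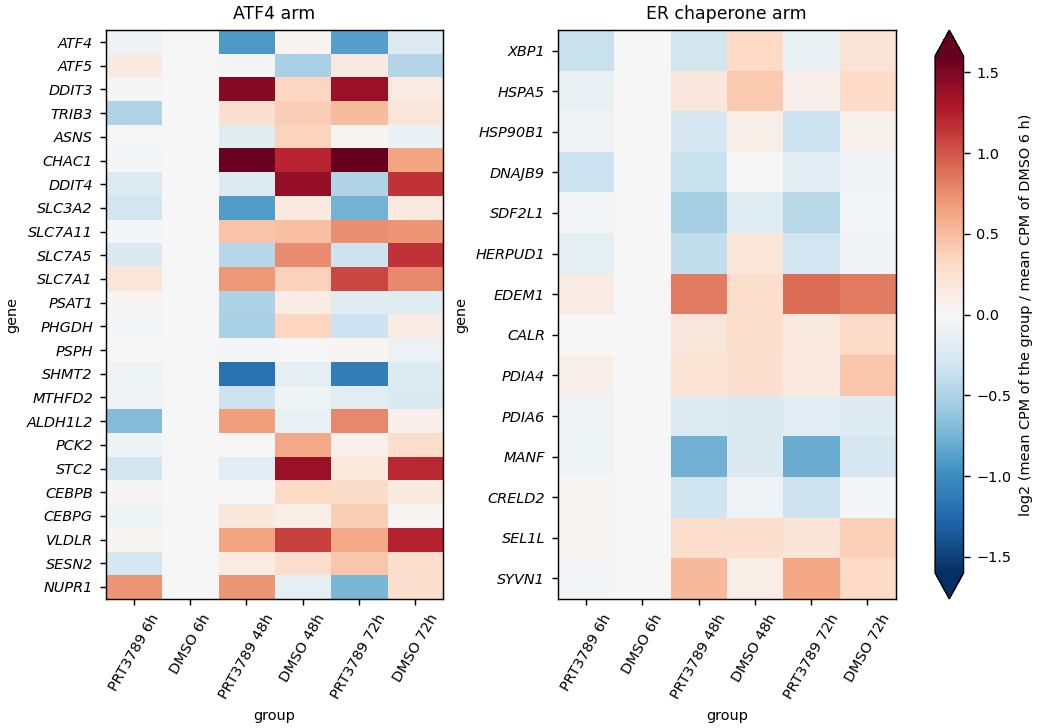
Mean level of each member in the 6 groups as log2 of the ratio to its mean in DMSO at 6 h, with PRT3789 to the left of DMSO at each time. At 48 h DDIT4 stood at -0.21 in PRT3789 and at 1.40 in DMSO, and SHMT2 at -1.19 in PRT3789 and at -0.16 in DMSO. NUPR1 and ALDH1L2 are near the lower end of counting.

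Other genes of the pathway were taken from further lists, also chosen with earlier results of these data known. They are to be read against the same 21.2% and 20.9% of all genes called higher and lower at 48 h. At 72 h these shares were 21.3% and 22%. Of 18 sensors and regulators of the stress responses, 6 rose and 3 fell at 48 h, and 5 rose and 3 fell at 72 h. ATF3, a factor downstream of ATF4, averaged 102 ± 1.45 CPM in PRT3789 and 38.3 ± 1.18 CPM in DMSO at 72 h (log2 fold change 1.41 ± 0.10, adjusted p = 6.08e-09). Of the eIF2 kinases, EIF2AK4 (GCN2, which senses uncharged tRNA) rose (0.74 ± 0.09, adjusted p = 4.6e-06) and EIF2AK3 (PERK, which senses misfolded protein in the ER) fell (-0.69 ± 0.08, adjusted p = 1.23e-06) at 72 h. Of 18 other ATF4 targets tested, of 20 listed, 2 rose and 11 fell at 48 h and 2 rose and 12 fell at 72 h. The amino acid carrier SLC1A5 (-0.94 ± 0.11), the branched-chain aminotransferase BCAT1 (-1.40 ± 0.14) and the AP-1 factor JDP2 (-1.16 ± 0.08) fell at 72 h (adjusted p = 2.33e-06, 2.67e-07 and 2.07e-09). JDP2 fell at 6 h too in the fit of all libraries (-0.99 ± 0.08, adjusted p = 5.9e-07). Of 20 cytosolic tRNA synthetases, a class that ATF4 is known to raise, 1 rose and 10 fell at 48 h, and 1 rose and 4 fell at 72 h, among them TARS1 (-0.44), YARS1 (-0.39) and FARSB (-0.23).

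Of 27 other genes of ER folding and degradation, 6 rose and 6 fell at 48 h and 6 rose and 3 fell at 72 h. Those with the smallest p at 72 h were the reductase DNAJC10 (0.95 ± 0.09), the oxidase ERO1A (0.69 ± 0.07) and the prolyl isomerase FKBP14 (0.65 ± 0.08), which rose (adjusted p = 1.04e-07, 2.86e-07 and 1.8e-06). Since DDIT4, STC2 and VLDLR also answer to hypoxia and SLC7A11 to NRF2, lists of those responses were read beside them. Of 9 tested hypoxia genes 2 rose and 4 fell at 48 h and 2 rose and 6 fell at 72 h. The glucose carrier SLC2A1 averaged 39.8 ± 2.46 CPM in PRT3789 and 302 ± 13.5 CPM in DMSO at 72 h (-2.92 ± 0.13, adjusted p = 1.02e-11) and NDRG1 fell too (-1.46 ± 0.10), whereas ADM, the peptide adrenomedullin, rose (2.48 ± 0.12). Of 8 tested NRF2 targets 2 rose and 2 fell at each late time, with HMOX1 higher (0.85) and TALDO1 lower (-0.72) at 72 h. The median log2 fold change at 48 and 72 h was 0.14 and 0.11 for the sensors, -0.61 and -0.45 for the other ATF4 targets, -0.22 and -0.04 for the synthetases, 0.06 and 0.02 for the other ER genes, -0.25 and -0.38 for the hypoxia genes and 0.03 and 0.04 for the NRF2 targets. The part of either response in the members' changes was not tested.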

How the data were processed

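The authors deposited 1 table of expected counts per gene symbol in 18 libraries. Per the series' design text, 150 bp read pairs of stranded, poly(A)-enriched libraries were processed with nf-core/rnaseq 3.17.0 (Trim Galore, STAR on GRCh38 p14 with release 110, RSEM); versions of the single tools are not given in the sources used here. RSEM shares reads that match several genes between them. The deposited expected counts were already whole numbers. No reads carry molecular identifiers, so depth bounds counting error only.

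From these counts, genes were kept by filterByExpr (16291 of 43236; the rest held at most 0.0482% of a library), scaled by TMM and tested in R 4.3.3 with edgeR 4.0.16 (robust, two-sided quasi-likelihood F tests, 1 mean for each of the 6 groups, which share one estimate of the spread). Calls needed a Benjamini-Hochberg adjusted p under 0.05 over all tested genes of a comparison. SE is the absolute log2 fold change over the root of F. The scripts were tested on simulated data. Groups came from the labels. Values in every library are given for ATF4, DDIT3, XBP1 and HSPA5 and, in each arm, for up to 6 members with the largest called change at 48 or 72 h; up to 3 genes with the smallest p at 72 h are named from each further list, of which 1 is not reported here. The members, lists and rules were chosen with earlier results of these data known. Alternatives were DESeq2 1.42.0, its size factors, total counts, no filter, limma-voom (limma 3.58.1), the replicate number as a block, each time fitted apart and each library left out in turn.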

Additional observations from a re-analysis of the deposited data

Results flagged for a closer look

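For 16 members the effect of PRT3789 at 48 h differed from that at 6 h by a test of the difference itself (interaction contrast in edgeR, adjusted p under 0.05). Values are the log2 fold change of PRT3789 over DMSO at 48 h minus that at 6 h. Among the factors, ATF4 was at -0.89, DDIT3 at 1.13 and ATF5 at 0.35. Among genes of transport and metabolism, SLC7A5 was at -0.98, SLC3A2 at -0.75, SHMT2 at -0.95, PHGDH at -0.83, PSAT1 at -0.63, ASNS at -0.56 and PCK2 at -0.53. DDIT4 was at -1.4, STC2 at -1.26 and VLDLR at -0.5. In the ER arm XBP1 was at -0.26, HERPUD1 at -0.44 and SYVN1 at 0.45. The 6 h libraries, which differed more among themselves, enter each of these values.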

How the results depend on the processing

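Of 51 calls of members at a single time, 35 were kept under every alternative run, 0 of 4 at 6 h, 19 of 25 at 48 h and 16 of 22 at 72 h. Of 663 alternative values of these calls, 618 stayed past the threshold, 45 missed it with the same direction and 0 reversed. Total counts without composition factors moved the median log2 fold change of all genes by 0.053 to 0.057 and, at 6 h, gave 293 genes higher and 368 lower, against 209 and 496. They left 1 ATF4-arm gene called lower at 6 h instead of 2. In the ATF4 arm they gave 4 genes higher and 12 lower at 48 h, against 3 and 13, and 8 lower at 72 h, against 9. In the ER arm they gave 6 genes lower at 48 h and 5 at 72 h, against 7 at each. Among all genes total counts called 3980 higher and 2933 lower at 48 h, against 3451 and 3402. Their counts at 72 h were 4013 and 3150, against 3478 and 3591. With each time fitted apart, 0 genes of either arm were lower at 6 h. At 48 h that setting called 4 ATF4-arm genes higher and 8 ER genes lower, against 3 and 7, and at 72 h 7 ATF4-arm genes higher, 10 lower and 10 ER genes lower, against 5, 9 and 7. Calls rose among all genes too. At 48 h 23.8% were higher and 25.6% lower, against 21.2% and 20.9% in the fit of all libraries. At 72 h 28.9% were higher and 29.7% lower, against 21.3% and 22%. The calls gained include SLC7A1, SESN2, NUPR1, CALR, CRELD2 and SEL1L. The count of 0 for the change of effect between 48 and 72 h became 1 without a filter and 5 with DESeq2 in the ATF4 arm, and 1 with DESeq2 in the ER arm. Of all genes, DESeq2 called 65 towards higher and 38 towards lower there. The count of 0 between DMSO at 48 and 72 h became 2 without a filter, 4 with DESeq2 and 1 with limma-voom in the ATF4 arm, and 2 with DESeq2 in the ER arm. Of all genes, DESeq2 called 326 higher and 228 lower there, and limma-voom 85 and 37. The share of all genes called without a filter was not counted. DESeq2 called the change of effect between 6 and 48 h for 5 ER genes instead of 3. Of all genes it called 1437 towards higher and 2010 towards lower, against 1438 and 1694 with edgeR.

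With 1 library left out, the count of genes lower at 6 h ran from 1 to 2 in each arm (1 without DMSO 6 h replicate 2, and in the ER arm also without PRT3789 6 h replicate 2). The count of ER genes higher ran from 1 to 2 at 48 h (1 without DMSO 48 h replicate 2) and from 0 to 1 at 72 h (0 without PRT3789 72 h replicate 3, DMSO 72 h replicate 1 or DMSO 72 h replicate 2). ER genes lower numbered 6 to 7 at 48 h and 5 to 7 at 72 h (5 without PRT3789 72 h replicate 3 or DMSO 72 h replicate 2). ATF4-arm genes lower numbered 12 to 13 at 48 h and 8 to 9 at 72 h, and those higher 2 to 3 and 4 to 7. For the change of effect between 6 and 48 h the ER count was 1 at the lowest, without PRT3789 6 h replicate 1, DMSO 6 h replicate 2, PRT3789 48 h replicates 1 or 3, or DMSO 48 h replicate 3. For the change of effect between 48 and 72 h the ATF4-arm count ran from 0 to 2, and between DMSO at 48 and 72 h from 0 to 2 (2 without DMSO 48 h replicate 1 in both, and 1 without DMSO 72 h replicate 2 in the second). The share of all genes called was not counted in the fits with 1 library left out, so these counts stand without it. The cause was not tested.

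Libraries with the same replicate number did not pair throughout. Over 9 pairs of a time, the correlation across 11059 genes of their deviations from the group means ran from -0.454 to 0.771. For replicates 1, 2 and 3 it was 0.481, -0.454 and 0.771 at 6 h and 0.31, -0.0493 and -0.147 at 48 h. At 72 h it was -0.0259, -0.155 and -0.164. Of 18 libraries 5 correlated best with their own number. The replicate block gave 1 ATF4-arm gene called between DMSO at 48 and 72 h instead of 0, and 13 and 3 members for the change of effect between 6 and 48 h, as without it. Among all genes the block called 57 higher and 25 lower between DMSO at 48 and 72 h, against 63 and 25. It called 1477 towards higher and 1706 towards lower for that change of effect, against 1438 and 1694. Depth limited ALDH1L2 and NUPR1, at under 2 CPM.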
